A study of Mus musculus with 4 samples.

Results

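Mcam, the gene of the adhesion molecule CD146, was measured together with 9 other genes of immunoglobulin-type cell adhesion molecules. The cells were mouse primary lung fibroblasts labelled Calu-KO or Calu-WT. The 10 genes, Mcam, Alcam, Bcam, Vcam1, Icam1, Ncam1, L1cam, Cadm1, Nectin1 and Nectin2, were found by name among the 54532 genes of the deposited table, and each name matched 1 row. Mcam was chosen by its difference between the groups compared here, and the other 9 were put beside it by family with results of these data known. The Calu-KO against WT values of Mcam are therefore given as a description, with no p-value.

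Immunoglobulin-type adhesion molecules are single-pass membrane proteins whose extracellular immunoglobulin domains bind the same molecule on a neighbouring cell, another family member, an integrin or a matrix protein such as laminin. Their cytoplasmic tails reach the actin or spectrin skeleton through ezrin-radixin-moesin proteins, ankyrins or afadin, and several of them are shed from the surface by metalloproteinases. In the lung, Mcam is best known from endothelial cells, pericytes and smooth muscle, and Vcam1 and Icam1 from the capture of leukocytes, while fibroblasts can express several of the family in culture.

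Total RNA was sequenced from 2 Calu-KO and 2 WT libraries, all described as mouse primary lung fibroblasts. Calumenin, the product of Calu, binds calcium and resides in the secretory pathway. The genotype labels read Calu-KO and Calu-WT, while the titles carry the letters KD for the Calu-KO libraries and NC for the WT libraries. The sources used here do not give how Calu was targeted, nor the strain, age or number of animals. Nothing in the labels tells if replicate libraries of 1 group go back to different mice or dishes, so the p-values cover the spread between these libraries, which may be technical.

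Values are FPKM, fragment counts scaled to gene length and by a factor for each library, and they could be turned back into reads. The 4 libraries held 15635448 to 16510048 reads, and a single read on 1 kb of gene length corresponded to 0.0591 to 0.0684 FPKM. The factor did not follow the recovered reads alone. Calu-KO replicate 2 and WT replicate 2 held 16038560 and 16033535 reads, yet a read on 1 kb stood for 0.0684 and 0.0602 FPKM. The sources used here do not give what else entered it, and results after rescaling to equal total reads are given below. Calu itself stood at 14.9 and 10.9 FPKM in Calu-KO replicates 1 and 2, against 178 and 177 FPKM in WT replicates 1 and 2. Calu RNA was thus far lower in Calu-KO but not absent, which does not tell KO from KD. Calu-KO replicate 2 stood apart, with 4.002% of its reads from mitochondrial genes against 2.43% to 2.53% in the other 3 libraries, and the WT libraries resembled each other more closely (r = 0.989 over genes) than the Calu-KO libraries did (r = 0.966). Of 14 fibroblast markers 8 were expressed at a mean of at least 1 FPKM, led by Vim at 531 and 650 FPKM in Calu-KO and 588 and 596 FPKM in WT. Dcn and Lum, which usually mark fibroblasts of the lung, had no read in any library, and Thy1 had 2 to 6 reads.

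Mcam binds laminin and growth factor receptors and signals to the actin skeleton. Its level was 18.4 and 13.0 FPKM in Calu-KO replicates 1 and 2, against 2.42 and 2.77 FPKM in WT replicates 1 and 2. In reads, these were 1043 and 635 in Calu-KO and 133 and 154 in WT. The groups did not overlap, and the lower Calu-KO library was still well above the higher WT library. The mean was 15.7 ± 3.85 FPKM in Calu-KO and 2.60 ± 0.242 FPKM in WT (SD, n = 2 each), a ratio of 6.04. On the log2(FPKM + 1) scale the difference was 2.20, and the Calu-KO replicates lay 2.43 and 1.96 above the WT mean. The SE of 0.19 and the 95% interval of 1.71 to 2.69 take no account of the choice of Mcam by this difference. In bulk RNA, fewer cells expressing a gene and less RNA per cell cannot be told apart, so a difference in Mcam may be one in level per cell or in the share of expressing cells.

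**Figure D1:**
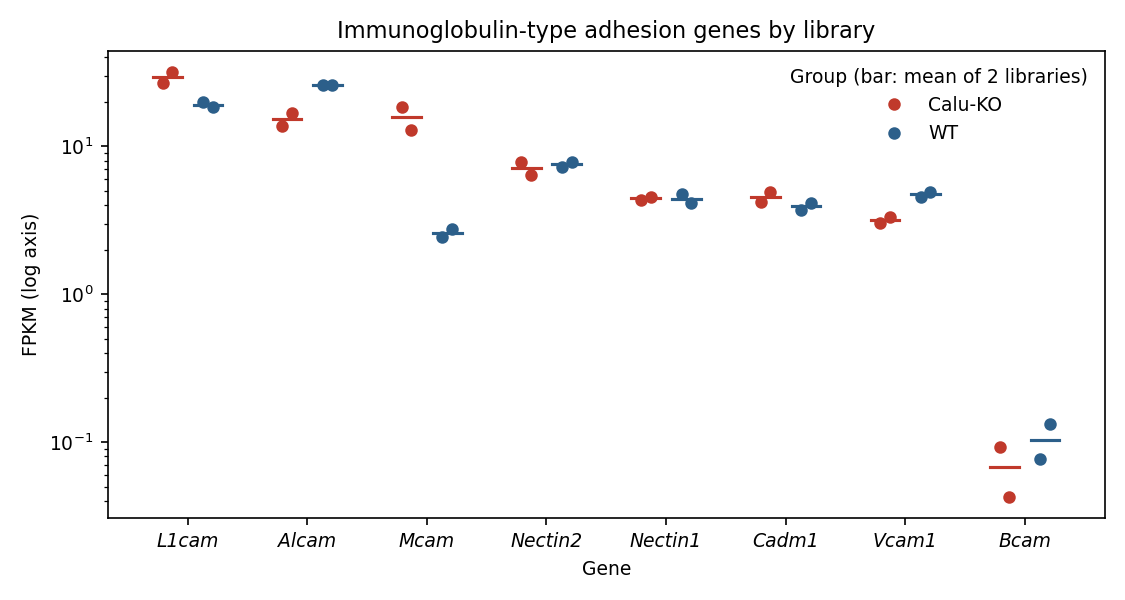
Level of the 8 genes with reads, in FPKM on a log axis, for Calu-KO (red, left of each pair) and WT (blue), with 1 point per library and a bar at the mean. The Mcam points of Calu-KO, at 18.4 and 13.0 FPKM, sit far above those of WT, at 2.42 and 2.77 FPKM, while Nectin1 and Nectin2 overlap.

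Mcam lies on the plus strand of chromosome 9 (ENSMUSG00000032135, chr9:44134469-44142727, build mm10). The stretch of 300 bases around its RefSeq start, which runs from 250 bases before the start to 50 after it, is shown with the windows of Alcam, Nectin2 and Icam1, because Mcam and Alcam had the highest and the lowest difference of the 7 tested genes, Nectin2 overlapped between the groups and Icam1 had no reads. Sequences are from RefSeq on GRCm38.p6, the build also called mm10, and run 5′ to 3′ on the strand of the gene. Capitals mark a GC box (GGGCGG, or CCGCCC on the other strand), a cyclic AMP response element (TGACGTCA, which reads the same on both strands) and a TATA box (TATAAA, searched on both strands).
Mcam, chr9:44134408-44134707, plus strand: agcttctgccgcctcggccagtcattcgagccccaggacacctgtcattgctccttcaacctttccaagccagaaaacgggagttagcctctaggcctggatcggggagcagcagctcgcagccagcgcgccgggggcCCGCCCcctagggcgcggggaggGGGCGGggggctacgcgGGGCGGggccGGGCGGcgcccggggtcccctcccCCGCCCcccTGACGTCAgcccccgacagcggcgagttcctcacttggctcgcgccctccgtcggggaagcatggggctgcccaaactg
Alcam, chr16:52453032-52453331, minus strand: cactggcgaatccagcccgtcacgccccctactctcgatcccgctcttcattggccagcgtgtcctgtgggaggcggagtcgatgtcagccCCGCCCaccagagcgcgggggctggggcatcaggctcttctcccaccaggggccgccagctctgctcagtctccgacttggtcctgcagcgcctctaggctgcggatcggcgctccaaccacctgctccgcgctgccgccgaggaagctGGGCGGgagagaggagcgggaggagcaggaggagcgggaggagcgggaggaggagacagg
Nectin2, chr7:19749524-19749823, minus strand: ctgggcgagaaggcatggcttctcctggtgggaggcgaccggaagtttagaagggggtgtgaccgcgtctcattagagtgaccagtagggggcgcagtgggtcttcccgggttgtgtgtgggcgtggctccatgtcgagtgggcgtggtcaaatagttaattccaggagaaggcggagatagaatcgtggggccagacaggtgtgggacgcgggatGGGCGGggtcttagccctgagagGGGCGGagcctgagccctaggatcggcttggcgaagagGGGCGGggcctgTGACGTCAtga
Icam1, chr9:21015690-21015989, plus strand: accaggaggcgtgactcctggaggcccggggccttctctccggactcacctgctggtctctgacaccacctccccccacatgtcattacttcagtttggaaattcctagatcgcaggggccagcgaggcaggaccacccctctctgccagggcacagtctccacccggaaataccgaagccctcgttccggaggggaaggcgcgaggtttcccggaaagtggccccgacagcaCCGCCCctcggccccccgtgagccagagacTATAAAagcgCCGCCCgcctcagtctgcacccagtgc
The Mcam window held 5 GC boxes and 1 cyclic AMP response element, in 72.7% G and C, against a median of 52.7% over the 32851 windows of all genes. The windows of Nectin2 (62.7%), Icam1 (64.7%), L1cam (67% and 69.3%), Alcam (69.7%) and Bcam (71%) were also above that median. Of all windows, 35.7% held a GC box, 1.79% the response element and 13.6% a TATA box. Nectin2 also had the response element, with 3 GC boxes, but placed otherwise. Counted in bases from the start, it began at 39 in Nectin2, after the start, and at -29 in Mcam, before it. Alcam had 2 GC boxes, and Icam1 had 2 GC boxes and a TATA box, which began at 13, after the start. The letters are a description of these windows and were tied to no factor. Of the 10 genes 6 matched the promoter table, and Vcam1, Ncam1, Cadm1 and Nectin1 are named only.

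Mcam was chosen by its difference and ranked 4 among the rises of the 11885 tested genes. Almost any neighbours would therefore differ less, and the genes next to Mcam are given as a description. Among the 10 nearest tested genes, 5 on each side, none passed the threshold of limma's adjusted p of 0.05 (0 higher and 2 lower at an unadjusted p under 0.05, and 1 lower by limma voom on recovered reads), and their log2 differences ran from -0.81 for Oaf to 0.42 for Usp2. Cbl encodes a ubiquitin ligase, and its lower coordinate lies 8.507 kb above that of Mcam, whatever the strand. Its difference was 0.28, which was below 0 without Calu-KO replicate 2. Within 1000 kb, 28 other genes were tested and none passed (3 higher and 3 lower unadjusted, 2 lower by voom), and their median difference was -0.04. The 662 tested genes of chromosome 9 had a median difference of 0.08, with 40.0% negative, against a median of 0.00 on the other chromosomes. The part of this shift in the value of Mcam was not tested. Of all 11885 tested genes, 2944 passed unadjusted in either direction, and voom called 236 higher and 488 lower. Nectin1, a member of the family, ends 327 kb before Mcam and had a log2 difference of 0.00. The antisense gene Gm10687 shares 17 bases with Mcam and had 28 and 12 reads in Calu-KO against 7 and 7 reads in WT, and the use of strand in counting is not stated. Mcam had 1043 and 635 reads in Calu-KO against 133 and 154 reads in WT, and the part of antisense reads in them was not tested.

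**Figure D2:**
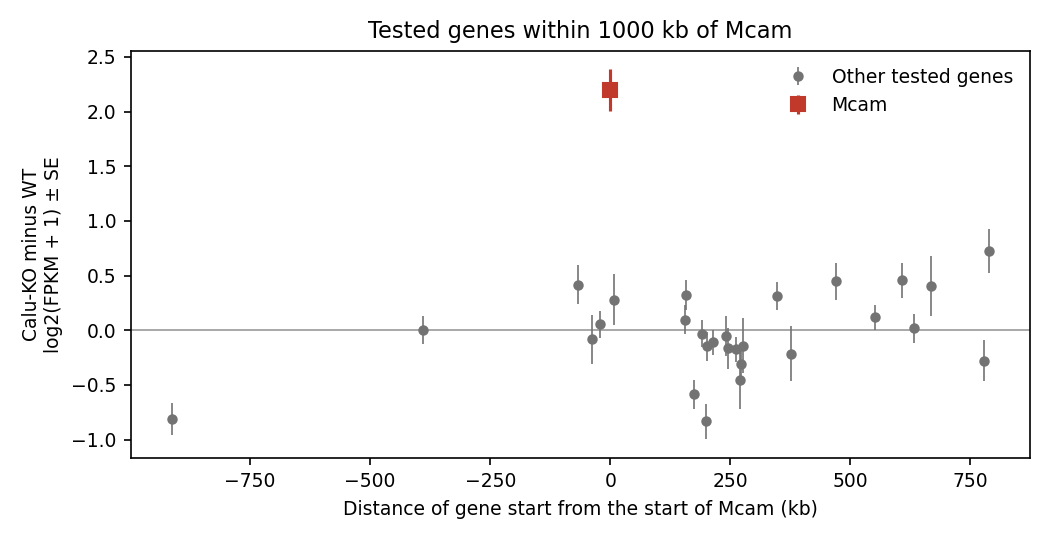
Log2 difference, Calu-KO minus WT, with its SE (limma), for each tested gene against the distance of its start from the start of Mcam in kb. The start is the lower coordinate of each gene, whatever its strand. Mcam (red square) stands at 2.20 and the 28 other genes (grey) lie between -0.83 and 0.73.

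The cell types best known for Mcam were examined through their markers. Of 11 pericyte markers 3 were expressed at a mean of 1 FPKM or more, and Rgs5, Abcc9, Vtn and Higd1b had no read in any library. Their summed level was 55.7 and 79.2 FPKM in Calu-KO, against 82.9 and 81.3 FPKM in WT. Des, an intermediate filament protein, fell to 6.81 and 7.86 FPKM in Calu-KO, against 14.0 and 15.6 FPKM in WT (log2 -0.92 ± 0.13, limma adjusted p = 0.0412). Pdgfrb, the growth factor receptor that partners Mcam in pericytes, stood at 18.6 and 25.9 FPKM in Calu-KO and 30.8 and 29.7 FPKM in WT (-0.44 ± 0.18, limma adjusted p = 0.210). Cspg4, a surface proteoglycan, overlapped, with 30.1 and 45.2 FPKM in Calu-KO and 36.7 and 34.5 FPKM in WT. None of 10 endothelial markers reached 1 FPKM; Cdh5, Kdr, Emcn, Cldn5 and Erg were at 0, and the sum was 0.316 and 0.268 FPKM in Calu-KO and 0.547 and 0.436 FPKM in WT. The 8 smooth muscle markers summed to 11.2 and 11.7 FPKM in Calu-KO and 15.98 and 15.8 FPKM in WT, nearly all of it Smtn, with Cnn1 at 0. The part of these cell types in the level of Mcam was not tested.

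Among the 5 protein-coding genes whose 4 library values were most like those of Mcam, by Euclidean distance on centred log2(FPKM + 1), were Ces1g at 0.16, Wnt10b at 0.50, Igf1 at 0.64 and Srp54b at 0.67. Ces1g, a carboxylesterase, stood at 32.6 and 26.3 FPKM in Calu-KO and 5.27 and 6.53 FPKM in WT. Ces1g and Srp54b have close relatives in the genome, so their reads may be split or shared. Igf1, a growth factor, stood at 5.61 and 7.85 FPKM in Calu-KO, against 0.703 and 0.754 FPKM in WT, and differed from Mcam in that Calu-KO replicate 2 was the higher one. These genes were found by the same contrast that picked Mcam, so their likeness is a description.

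Alcam, or CD166, binds itself on other cells and the T cell molecule CD6. It stood at 13.8 and 16.8 FPKM in Calu-KO against 26.0 and 26.1 FPKM in WT. All 4 values rest on 1662 to 3092 reads, and both Calu-KO libraries lay below both WT libraries. The mean was 15.3 ± 2.10 FPKM in Calu-KO and 26.1 ± 0.0767 FPKM in WT (SD, n = 2 each), and the log2 difference of -0.74 ± 0.13 did not pass the threshold (limma adjusted p = 0.0643; 95% interval -1.08 to -0.40). When the libraries were rescaled to equal total reads it passed, with -0.84 and an adjusted p of 0.0443, and over the 11 alternatives the adjusted p ran from 0.00414 to 0.472. Alcam lies on chromosome 16 (ENSMUSG00000022636, chr16:52248996-52454074, minus strand), where the whole chromosome stood low. Its 354 tested genes had a median log2 difference of -0.24, and 78.5% of them were negative, against a median of 0.01 on the other chromosomes. That median was -0.28 in Calu-KO replicate 1 and -0.21 in Calu-KO replicate 2, and its part in the value of Alcam was not tested. Cd6 had 1 read in WT replicate 1 and none elsewhere.

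Bcam, the Lutheran blood group protein, is a receptor for laminin that contains the Lama5 chain. It had 5 and 2 reads in Calu-KO and 4 and 7 reads in WT, which is 0.0428 to 0.132 FPKM, and the groups overlapped. Bcam (ENSMUSG00000002980, chr7:19756131-19771016, minus strand) lies 5.648 kb from Nectin2, which was expressed. Lama5 stood at 35.7 and 59.6 FPKM in Calu-KO and 35.2 and 34.6 FPKM in WT (log2 0.39 ± 0.25, limma adjusted p = 0.365), so RNA of the ligand was present where that of the receptor was near 0. Lama4, the laminin chain bound by Mcam, had 2 reads in each WT library and none in Calu-KO.

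L1cam, first known from growing axons, binds itself and links to the spectrin skeleton through ankyrins. It stood at 26.9 and 31.8 FPKM in Calu-KO, against 19.8 and 18.5 FPKM in WT, and was the highest of the family in Calu-KO. Both Calu-KO values lay above both WT values, with 2261 to 3418 reads per library. The mean was 29.4 ± 3.46 FPKM in Calu-KO and 19.2 ± 0.902 FPKM in WT (SD, n = 2 each), and the log2 difference of 0.59 ± 0.13 did not pass (limma adjusted p = 0.0888; 95% interval 0.26 to 0.92). L1cam (ENSMUSG00000031391, chrX:73853778-73896105, minus strand) overlaps Arhgap4 on the same strand, which had 38 to 56 reads. The X chromosome as a whole had a median difference of 0.05.

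Ncam1, the neural cell adhesion molecule, had no read in any library (ENSMUSG00000039542, chr9:49502136-49798925, minus strand), and 3 reads would have been 0.0205 and 0.0237 FPKM in Calu-KO and 0.0211 and 0.0208 FPKM in WT. St8sia2 and St8sia4, the enzymes that put polysialic acid on it, were also without reads. Of 10 Schwann and neural markers S100b alone reached 1 FPKM, with 9.01 and 4.43 FPKM in Calu-KO and 13.7 and 13.7 FPKM in WT, and Foxd3, Tubb3 and Map2 were at 0. The 10 markers summed to 10.7 and 5.72 FPKM in Calu-KO and 15.4 and 15.0 FPKM in WT. The part of such cells in the level of L1cam was not tested.

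Vcam1 is the ligand of integrins that contain the Itga4 chain, and inflammation induces it through NF-kappaB. It stood at 3.03 and 3.35 FPKM in Calu-KO and 4.55 and 4.94 FPKM in WT, and the groups did not overlap. The mean was 3.19 ± 0.222 FPKM in Calu-KO and 4.75 ± 0.275 FPKM in WT (SD, n = 2 each), and the log2 difference of -0.46 ± 0.13 did not pass (limma adjusted p = 0.131; 95% interval -0.79 to -0.13). Vcam1 (ENSMUSG00000027962, chr3:116109949-116129688, minus strand) had 434 to 728 reads per library. Its receptor chains were unequal. Itga4 had 39 to 65 reads and was below the level tested, while Itgb7, which pairs with it, fell to 13.5 and 15.3 FPKM in Calu-KO, against 27.9 and 28.8 FPKM in WT (log2 -0.94 ± 0.12, limma adjusted p = 0.0335). Itgb1, the other partner, overlapped, with 72.3 and 77.8 FPKM in Calu-KO and 75.2 and 77.2 FPKM in WT.

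Icam1, the ligand of the leukocyte integrin chains Itgal and Itgb2, had no read in any library (ENSMUSG00000037405, chr9:21015985-21028817, plus strand), and 3 reads would have been 0.0407 and 0.0471 FPKM in Calu-KO and 0.0420 and 0.0414 FPKM in WT. Itgb2 stood at 0.349 and 0.0673 FPKM in Calu-KO and 0.800 and 1.14 FPKM in WT, below the level tested. Itgal overlapped, with 1.999 and 2.80 FPKM in Calu-KO and 2.36 and 2.37 FPKM in WT. Macrophage markers summed to 7.63 and 6.56 FPKM in Calu-KO, against 16.03 and 17.1 FPKM in WT. Of them, 1 of the 3 tested was lower, against 1.83% of all genes, and Adgre1, Itgam, Mrc1 and C1qa were at 0. Lymphocyte markers summed to 0.232 and 0 FPKM in Calu-KO and 0.355 and 0.203 FPKM in WT, with Cd3d, Cd2, Cd8a and Ms4a1 at 0. The part of such cells in the levels of Itgb7 and Itgb2 was not tested. Of 34 NF-kappaB components and inducible genes 23 were tested and none passed by limma (2 higher and 6 lower at an unadjusted p under 0.05, 0 by voom), with a median log2 difference of 0.03. For scale, 2944 of all 11885 tested genes had an unadjusted p under 0.05, and voom called 236 higher and 488 lower. Rela, the subunit that activates transcription, stood at 39.6 and 41.9 FPKM in Calu-KO and 40.2 and 39.1 FPKM in WT. Nfkbia, its inhibitor and target, stood at 32.6 and 27.5 FPKM in Calu-KO and 23.6 and 21.9 FPKM in WT (0.38 ± 0.13, limma adjusted p = 0.170).

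Cadm1 binds itself and other family members across cell contacts. It stood at 4.21 and 4.92 FPKM in Calu-KO and 3.72 and 4.13 FPKM in WT, and the groups did not overlap by a narrow gap. The log2 difference was 0.17 ± 0.14 (limma adjusted p = 0.455; 95% interval -0.18 to 0.53). Cadm1 (ENSMUSG00000032076, chr9:47530173-47857637, plus strand) lies 3387 kb from Mcam. Its relative Cadm4 was higher in level, at 52.8 and 44.3 FPKM in Calu-KO and 67.2 and 65.5 FPKM in WT, and its log2 difference of -0.45 ± 0.13 did not pass (limma adjusted p = 0.134).

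Nectins start cell contacts and recruit afadin, which couples them to cadherins. Nectin1 stood at 4.36 and 4.53 FPKM in Calu-KO and 4.74 and 4.13 FPKM in WT, with a log2 difference of 0.00 ± 0.13 (limma adjusted p = 0.986; 95% interval -0.33 to 0.33). Nectin2 stood at 7.87 and 6.39 FPKM in Calu-KO and 7.22 and 7.87 FPKM in WT, with a difference of -0.08 ± 0.14 (limma adjusted p = 0.749; 95% interval -0.44 to 0.28). Both overlapped between the groups, and neither interval reaches the differences measured for Alcam or L1cam. Nectin1 (ENSMUSG00000032012, chr9:43743984-43807461, plus strand) and Nectin2 (ENSMUSG00000062300, chr7:19716644-19750483, minus strand) had 326 to 465 reads per library. Nectin3 had no read in any library and Nectin4 had 3 reads in WT replicate 2 alone. Pvr, the poliovirus receptor, which nectins bind, stood at 7.60 and 7.41 FPKM in Calu-KO and 10.3 and 10.5 FPKM in WT (log2 -0.42 ± 0.11, limma adjusted p = 0.112). Afdn, the gene of afadin, overlapped, with 10.3 and 16.4 FPKM in Calu-KO and 11.7 and 10.8 FPKM in WT.

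**Figure D3:**
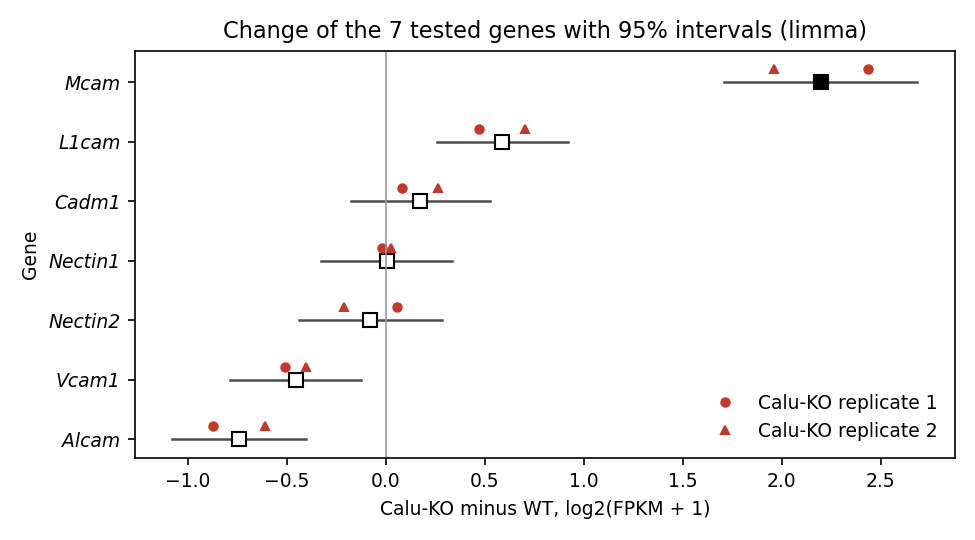
Log2 difference, Calu-KO minus WT, with 95% intervals from limma (squares, filled where past the threshold) and each Calu-KO replicate against the WT mean (circle for replicate 1, triangle for replicate 2). Mcam stands at 2.20, L1cam at 0.59, Vcam1 at -0.46 and Alcam at -0.74, while the intervals of Cadm1, Nectin1 and Nectin2 cover 0. The interval and filled mark of Mcam take no account of its choice by this difference.

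As a set, 7 of the 10 genes were tested, since Bcam, Icam1 and Ncam1 stayed under a mean of 1 FPKM. Of the 7, 1 was past the threshold and higher in Calu-KO, against 0.942% of the 11885 genes tested, and none was past it and lower, against 1.83% of all genes; 2.77% of all genes passed in either direction. The gene that passed was Mcam, so nothing is read from the count. At an unadjusted p under 0.05 the 7 gave 2 higher and 2 lower, against 2944 of the 11885 genes in either direction. By limma voom the 7 also gave 2 higher and 2 lower, against 236 higher and 488 lower of all genes. Mcam is in both counts, and with no filter on low values none passed. Both Calu-KO values lay above both WT values for 3 of the 7 genes, Mcam, L1cam and Cadm1, as for 32% of all genes, and below them for 2, Alcam and Vcam1, as for 29.7% of all genes. The median log2 difference of the 7 was 0.00, against 0.01 over all genes tested. Over all genes 112 were higher and 217 lower, and after rescaling to equal total reads 45 were higher and 152 lower.

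The order of the levels differed between the groups. In Calu-KO the mean levels ran from L1cam through Mcam, Alcam, Nectin2, Cadm1, Nectin1 and Vcam1 down to Bcam. In WT they ran from Alcam through L1cam, Nectin2, Vcam1, Nectin1 and Cadm1 to Mcam and Bcam, so Mcam stood at place 2 in Calu-KO and at place 7 in WT. Mcam and Alcam overlapped within Calu-KO, and so did Cadm1 and Nectin1. In WT, Nectin1 overlapped Vcam1 and stood just above Cadm1, at 4.132 FPKM against 4.129 FPKM in the nearest libraries. Mcam made up 23.4% and 16.1% of the summed FPKM of the family in Calu-KO, against 3.54% and 4.03% in WT. Alcam made up 17.5% and 20.8% in Calu-KO, against 38.0% and 38.1% in WT. The sum was 78.7 and 80.8 FPKM in Calu-KO and 68.6 and 68.6 FPKM in WT, and without Mcam it was 60.3 and 67.8 FPKM in Calu-KO and 66.1 and 65.9 FPKM in WT, which overlapped.

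**Figure D4:**
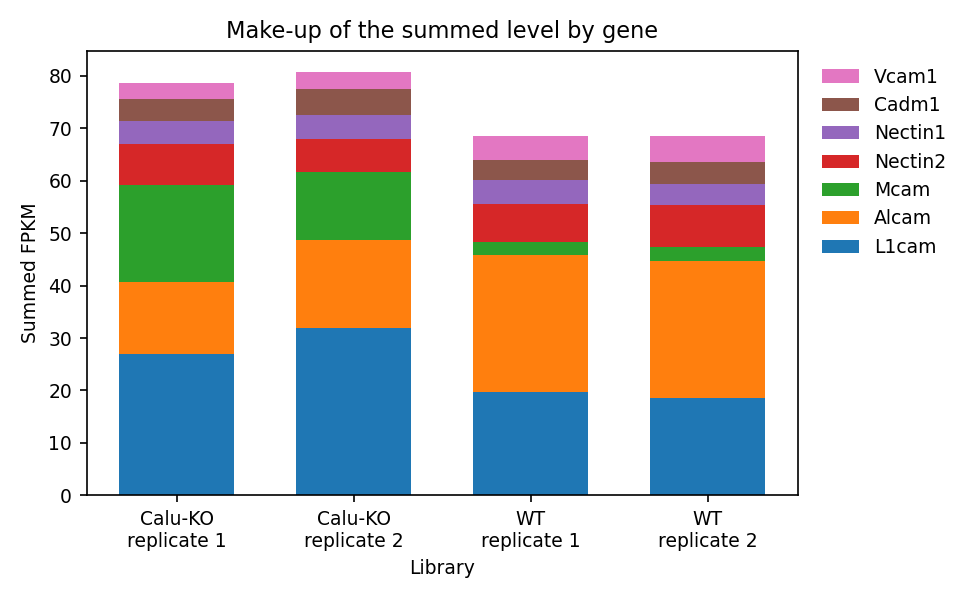
Summed FPKM of the 7 tested genes in each library, stacked by gene, with the Calu-KO libraries left of the WT libraries. The Mcam segment is 18.4 and 13.0 FPKM in Calu-KO and 2.42 and 2.77 FPKM in WT, and the Alcam segment is smaller in Calu-KO.

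Among 61 other immunoglobulin-type adhesion genes 15 were tested, 1 rose and none fell by limma (1 higher and 5 lower at an unadjusted p under 0.05, 1 higher and 1 lower by voom), with a median log2 difference of -0.07. The gene that rose was Cdon, a receptor that takes part in hedgehog signalling and binds cadherins. It stood at 7.81 and 10.5 FPKM in Calu-KO, against 3.20 and 3.76 FPKM in WT (log2 1.17 ± 0.18, limma adjusted p = 0.0451). Bsg, or basigin, which escorts lactate transporters to the membrane, had the highest level, with 233 and 206 FPKM in Calu-KO and 269 and 269 FPKM in WT (-0.30 ± 0.12, limma adjusted p = 0.217). A further 15 of the 61 had no read in any library. Of all 11885 tested genes limma called 112 higher and 217 lower, and 2944 had an unadjusted p under 0.05. Voom called 236 higher and 488 lower. The calls of Cdon, Itgb7 and Des were lost when genes down to a mean of 0.1 FPKM were tested or either WT library was left out, and that of Cdon also after rescaling and without the intensity trend. Over 11 alternatives the adjusted p ran from 0.00364 to 0.238 for Cdon, from 0.00303 to 0.294 for Itgb7 and from 0.00503 to 0.361 for Des.

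Of 32 ligands and counter-receptors of the family 14 were tested, and Itgb7 alone passed (0 higher and 5 lower at an unadjusted p under 0.05, 4 lower by voom). Their median log2 difference was -0.32, with 11 of the 14 negative, against a median of 0.01 over all genes. Over the 11885 tested genes limma called 112 higher and 217 lower, and 2944 had an unadjusted p under 0.05. Voom called 236 higher and 488 lower of them. Of 30 linkers and adaptors 22 were tested and none passed by limma (5 higher and 2 lower unadjusted, 2 and 2 by voom), with a median of 0.22. Ezr, the gene of ezrin, which ties Mcam and L1cam to actin, stood at 37.5 and 33.6 FPKM in Calu-KO and 26.7 and 28.3 FPKM in WT (0.36 ± 0.12, limma adjusted p = 0.155). Of 20 sheddases and glycan enzymes 12 were tested and none passed by limma (2 higher and 4 lower unadjusted, 1 and 1 by voom), with a median of -0.17. Adam17, which sheds several of the family, stood at 46.4 and 55.0 FPKM in Calu-KO, against 28.2 and 30.3 FPKM in WT (0.77 ± 0.13, limma adjusted p = 0.0575). Its relative Adam10 stood at 39.4 and 40.7 FPKM in Calu-KO and 33.8 and 35.1 FPKM in WT (0.21 ± 0.10, limma adjusted p = 0.271). Mmp14, a membrane-bound metalloproteinase, stood at 29.4 and 34.4 FPKM in Calu-KO and 51.8 and 51.7 FPKM in WT (-0.69 ± 0.12, limma adjusted p = 0.0647). By limma voom Adam17 and Mmp14 passed, with adjusted p-values of 0.0232 for Adam17 and 0.0144 for Mmp14. Over the 11 alternatives the adjusted p ran from 0.00315 to 0.496 for Adam17 and from 0.00373 to 0.539 for Mmp14. For these 3 proteinases the groups did not overlap, with Adam17 and Adam10 higher in level and Mmp14 lower in level in Calu-KO. Both Calu-KO values lay above both WT values for 3 of the 12 tested genes and below them for 5. The shares over all tested genes were 32% above and 29.7% below, so nothing is read from the lack of overlap.

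**Figure D5:**
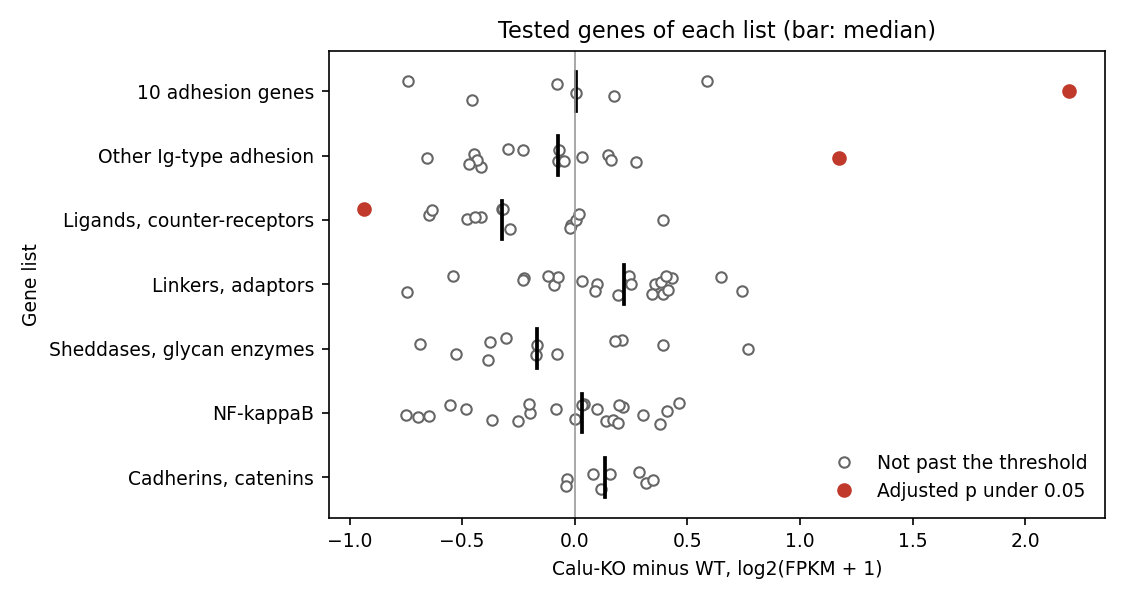
Log2 difference, Calu-KO minus WT, of each tested gene of the family and of 6 lists around it, with a bar at the median and filled points past the threshold. Mcam at 2.20, Cdon at 1.17 and Itgb7 at -0.94 are the 3 filled points. Mcam was chosen by its difference, so its filled mark is a description.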

How the data were processed

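The authors deposited FPKM values for 54532 genes, 1 column per library. Per the labels' protocols, TRIzol-extracted total RNA was sequenced on an Illumina instrument and the read pairs were mapped by HISAT2 2.0.5. The build was mm10, per the submitters' processing notes. The sources used here do not give the read counter, annotation or use of strand. When each FPKM was multiplied by its gene's length, 100% of values were whole multiples of a library's smallest step (tolerance 0.01 reads), so reads were recovered. The 11885 genes averaging 1 FPKM or more were fitted on log2(FPKM + 1) with limma 3.58.1 (R 4.3.3; intensity trend), and p-values were adjusted by Benjamini-Hochberg over all of them. A fold change on this scale understates the change of low genes. An exact two-sided permutation test of 2 against 2 cannot go below 0.333 and was not used. Floors are 3 reads and cover counting error only.

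The members and lists were chosen with earlier results of these data known. Named genes are the 10 members, Calu, from each list up to 6 genes past the threshold and up to 4 of the highest level, and the 5 genes most like Mcam; not all of these are described, and 1 of the 5 is not reported here. Lama4, Lama5, Cd6, Itga4, Itgal, Itgb2, Pvr, Nectin3, Nectin4, Afdn, Ezr, Adam10, Nfkbia, St8sia2, St8sia4, Oaf, Usp2 and Cbl were named outside that rule, for their known tie to a member or their place beside Mcam, after their values were seen. Motifs were searched in RefSeq windows of 300 bases. The scripts were tested on simulated data. Alternatives changed the pseudocount (0.1), the filter (0.1 FPKM or none), the prior, the scaling, the model (limma voom on recovered reads), a replicate block, and left out each library.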

Additional observations from a re-analysis of the deposited data

How the results depend on the processing

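The log2 difference of Mcam ran from 1.96 to 2.53 over the 11 alternatives. Mcam was chosen by this difference in the same libraries, so its staying above 0 is a description and tests nothing. With no filter on low values its difference was 2.20 and it no longer passed, which held for every gene under that setting. With no filter limma called 0 genes higher and 0 lower, with 3886 at an unadjusted p under 0.05 in either direction, and 0 members higher. With a filter of 0.1 FPKM 29 genes were higher and 99 lower. Rescaling to equal total reads shifted the median of all genes to -0.09 and gave 45 genes higher and 1 member lower (Alcam, -0.84). Limma voom shifted it to -0.10 and gave 236 genes higher, 488 lower, 2 members higher and 2 lower (Alcam -0.89, Vcam1 -0.68, L1cam 0.50). On rescaling, differences near 0 turned negative for Nectin1 (-0.085), Cspg4 (-0.055), Itgal (-0.075) and Rela (-0.067), and under voom they were -0.10, -0.057, -0.11 and -0.069 for the same genes. Leaving out 1 library gave 8 to 2926 genes higher, 34 to 2805 lower, 1 to 2 members higher and 0 to 2 lower, and without a Calu-KO library the spread comes from the WT pair alone. The log2 differences then ran from -0.87 to -0.61 for Alcam, 0.47 to 0.70 for L1cam and -0.51 to -0.40 for Vcam1. They crossed 0 for Nectin1 (-0.077 to 0.085), Nectin2 (-0.21 to 0.055), Afdn (-0.12 to 0.51), Cspg4 (-0.23 to 0.34), Itgal (-0.17 to 0.18), Rela (-0.0017 to 0.080), Itgb1 (-0.075 to 0.030), Cbl (-0.047 to 0.61) and Vim (-0.16 to 0.14). Except where the construction shows it, the cause was not tested.

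Same-numbered libraries did not deviate together (r = 0.015 over genes), so the numbers were not used to pair them. A replicate block leaves every difference as it is in this balanced design and alters the spread alone. With it 181 genes were higher and 312 lower, and limma called Adam17 (0.77, adjusted p = 0.0494), Oaf (-0.81, adjusted p = 0.0371) and Wnt10b (1.90, adjusted p = 0.00873), which had not passed. With 2 libraries a group the spread behind every test is thinly estimated, and genes with as few reads as Bcam cannot be compared at this depth.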

Other observations

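Cadherins and catenins, the adhesion system that nectins join, gave no call. Of 25 genes 8 were tested, none passed limma's threshold (1 higher at an unadjusted p under 0.05, 0 by voom), and the median log2 difference was 0.14. Over all genes tested, 2944 of 11885 had an unadjusted p under 0.05, and voom called 236 higher and 488 lower. Ctnnb1, or beta-catenin, stood at 87.7 and 90.5 FPKM in Calu-KO and 90.3 and 92.0 FPKM in WT, and the groups overlapped. Of the cadherins, 8 had no read in any library, Cdh5 and Cdh11 among them, and no cadherin reached the level tested.

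Of 12 epithelial markers Krt8 alone was tested, with Epcam, Sftpc, Cldn4 and Nkx2-1 at 0. Krt8 stood at 0.0604 and 0.0699 FPKM in Calu-KO, which is 2 reads in each library. In WT it stood at 2.75 and 2.28 FPKM (log2 -1.72, limma adjusted p = 0.0274). Krt8 reached the mean of 1 FPKM only through its WT values, so nothing is read from its call. Krt18 (0 and 3 reads in Calu-KO, 1 and 2 in WT) and Krt19 (1 and 11 reads in Calu-KO, 3 and 1 in WT) were not tested. Of 8 mesothelial markers Krt8 and Msln were tested. Msln, the gene of mesothelin, stood at 25.2 and 22.1 FPKM in Calu-KO and 33.0 and 30.4 FPKM in WT (log2 -0.41, limma adjusted p = 0.141). Of the fibroblast markers Col3a1, a fibrillar collagen, was the one that passed, at 11.9 and 12.2 FPKM in Calu-KO against 38.9 and 39.4 FPKM in WT (log2 -1.62, limma adjusted p = 0.0115). The calls of Krt8 and Col3a1 were lost with no filter on low values and without either WT library.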
